A study of Mus musculus with 24 samples.

Results

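The Hoxc cluster is a row of 9 homeobox genes on mouse chromosome 15 that lie, all on the plus strand, in the order Hoxc13, Hoxc12, Hoxc11, Hoxc10, Hoxc9, Hoxc8, Hoxc6, Hoxc5 and Hoxc4. The genes were taken by name and their chromatin by position. A peak of any of the 7 deposited lists was kept where it overlapped a member's gene record, which is the annotated extent of all its transcripts, or the 10 kb on either side, and it was assigned to the member with the nearest transcription start. The records and their flanks joined into 1 window, chr15:102911103-103046852 on mm10, of 135750 bp. This window held 178 of the 368246 peaks of the series.

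The study asked how Hedgehog signaling acts on enhancers in the limb, and mapped histone marks by chromatin immunoprecipitation and sequencing (ChIP-seq) in 14 libraries, with 10 input libraries of chromatin that was not immunoprecipitated. The limb groups were forelimb buds of Swiss Webster background at E10.5 (32 to 35 somites), pooled from several embryos, with about 400000 cells per ChIP. They comprised H3K27ac in WT and in Shh-/- limbs, H3K4me2 in WT and in Shh-/- limbs, and H3K27me3 in Shh-/- limbs, where Shh-/- buds lack the Sonic hedgehog ligand through the Shh tm1amc null allele. By the methods of the study the WT buds were a mixture of wild-type and heterozygous littermates. The cell culture groups were NIH3T3, an established line of mouse embryonic fibroblasts, with 1000000 cells per ChIP. These cells were moved to low serum and treated for 48 h (the labels of both groups also carry the term LIF, without saying what it stands for) with either 400 nM purmorphamine, an agonist of the Hedgehog receptor component Smoothened, or the vehicle DMSO, and H3K27ac was mapped in both. WT H3K27me3 was not analysed here. Limb and fibroblast H3K27ac came from different antibodies as well as different cell numbers, so tissue and antibody cannot be told apart.

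The authors pooled the replicates of a condition when they called its peaks against input. No spread between replicates can therefore be read from the lists, and no difference below carries a test. Shares of peaks are given with a 95% Wilson interval, which covers counting error only, and beside the same share over the whole list. For each peak the values are its length, its rank in its list (1 is the strongest), and the highest log2 ratio of ChIP to input within it, which is a level. A bulk peak list gives no number of cells, so fewer cells with a mark and less of the mark per cell cannot be told apart.

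Hox genes encode transcription factors that set position along the body axis. Within a cluster they are switched on in the order in which they lie, and the genes at the posterior end (groups 9 to 13) act later and farther toward the tail or the tip of the limb than those at the anterior end. Chromatin of a silent Hox domain carries H3K27me3, which is laid down by Polycomb repressive complex 2, whereas H3K27ac marks active promoters and enhancers and H3K4me2 marks promoters and enhancers that are active or primed. In the limb the Hoxa and Hoxd clusters are the ones best known for patterning. Of the Hoxc genes, Hoxc4, Hoxc5 and Hoxc6 are expressed at the level of the forelimb, Hoxc9, Hoxc10 and Hoxc11 are known for expression in the trunk and hindlimb, and Hoxc13 is known for its role in hair and nails.

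The sequences that mark the main features of the cluster are shown here, all read from GRCm38, the assembly that mm10 names, on the plus strand and 5′ to 3′. The series of H3K27me3 peaks over the posterior genes ended between Hoxc8 and Hoxc6, in an intron of a long non-coding transcript of Hoxc5. The 200 bases around that end, chr15:102997200-102997399, are shown with the bases under the last H3K27me3 peak in capitals. They are poor in G and C (29.0%) and run into repeats of the letters AAAG.
end of the H3K27me3 peaks: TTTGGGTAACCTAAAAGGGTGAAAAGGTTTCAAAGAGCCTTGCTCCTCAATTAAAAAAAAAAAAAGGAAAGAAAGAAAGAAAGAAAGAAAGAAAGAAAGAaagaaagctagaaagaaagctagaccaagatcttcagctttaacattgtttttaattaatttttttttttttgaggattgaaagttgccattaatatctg

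In the next 3 sequences capitals mark CG dinucleotides. The first is the longest stretch under peaks of all 7 lists, 150 bp in the long intron of the transcript of Hoxc4 that starts upstream (chr15:103027250-103027399). The second is the 150-bp peak between Hoxc11 and Hoxc10 (chr15:102959800-102959949), which is the one limb H3K27ac peak within the posterior part. The third is the 100 bp just upstream of the start of Hotair that was acetylated in both NIH3T3 lists (chr15:102947850-102947949).
under all 7 lists: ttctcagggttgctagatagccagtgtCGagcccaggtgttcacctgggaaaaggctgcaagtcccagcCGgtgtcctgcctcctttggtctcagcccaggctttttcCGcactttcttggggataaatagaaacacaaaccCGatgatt
WT limb H3K27ac peak: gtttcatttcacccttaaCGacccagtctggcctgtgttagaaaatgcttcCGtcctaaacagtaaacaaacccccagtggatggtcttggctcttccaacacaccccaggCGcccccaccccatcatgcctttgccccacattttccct
NIH3T3 H3K27ac near Hotair: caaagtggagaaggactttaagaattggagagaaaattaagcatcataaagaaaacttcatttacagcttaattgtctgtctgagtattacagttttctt

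The cluster also carries 2 microRNA genes, whose mature products are shown as RefSeq gives them (GRCm38.p6), with the seed, bases 2 to 8, in capitals. Mir196a-2 (chr15:102973350-102973434) lies between Hoxc10 and Hoxc9, and Mir615 (chr15:103014910-103015001) lies in the intron of Hoxc5. All 4 seeds differ. The seed of miR-196a-5p is also that of miR-196b-5p, whose gene lies in the Hoxa cluster, and the whole mature sequence of miR-196a-5p is also made from Mir196a-1 in the Hoxb cluster. The family is known for targeting Hox transcripts.
mmu-miR-196a-5p: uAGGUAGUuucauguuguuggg
mmu-miR-196a-2-3p: uCGGCAACaagaaacugccuga
mmu-miR-615-5p: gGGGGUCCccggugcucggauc
mmu-miR-615-3p: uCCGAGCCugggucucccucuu

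The cluster fell into 2 parts in every list. From the start of the window to the end of Hoxc8 the DNA lay under H3K27me3 in the Shh-/- limb and almost without H3K27ac in any of the 4 acetylation lists, and from Hoxc6 to the end of the window the opposite held. To give values, the window was divided midway between the records of Hoxc8 and Hoxc6 (after base 102996184), a point chosen after the lists had been seen. H3K27me3 peaks covered 90.5% of the 85082 bp of the posterior part, against 3.98% of the 50668 bp of the anterior part. WT limb H3K27ac covered 0.176% of the posterior part and 30.6% of the anterior part. Shh-/- limb H3K27ac covered 0.0% and 42.4%. In NIH3T3 cells the H3K27ac shares were 0.94% and 18.1% with purmorphamine and 0.235% and 17.4% in the control. Over the whole genome, H3K27me3 peaks covered 0.385% of the bases, and the 4 acetylation lists covered between 0.723% and 2.21%.

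**Figure D1:**
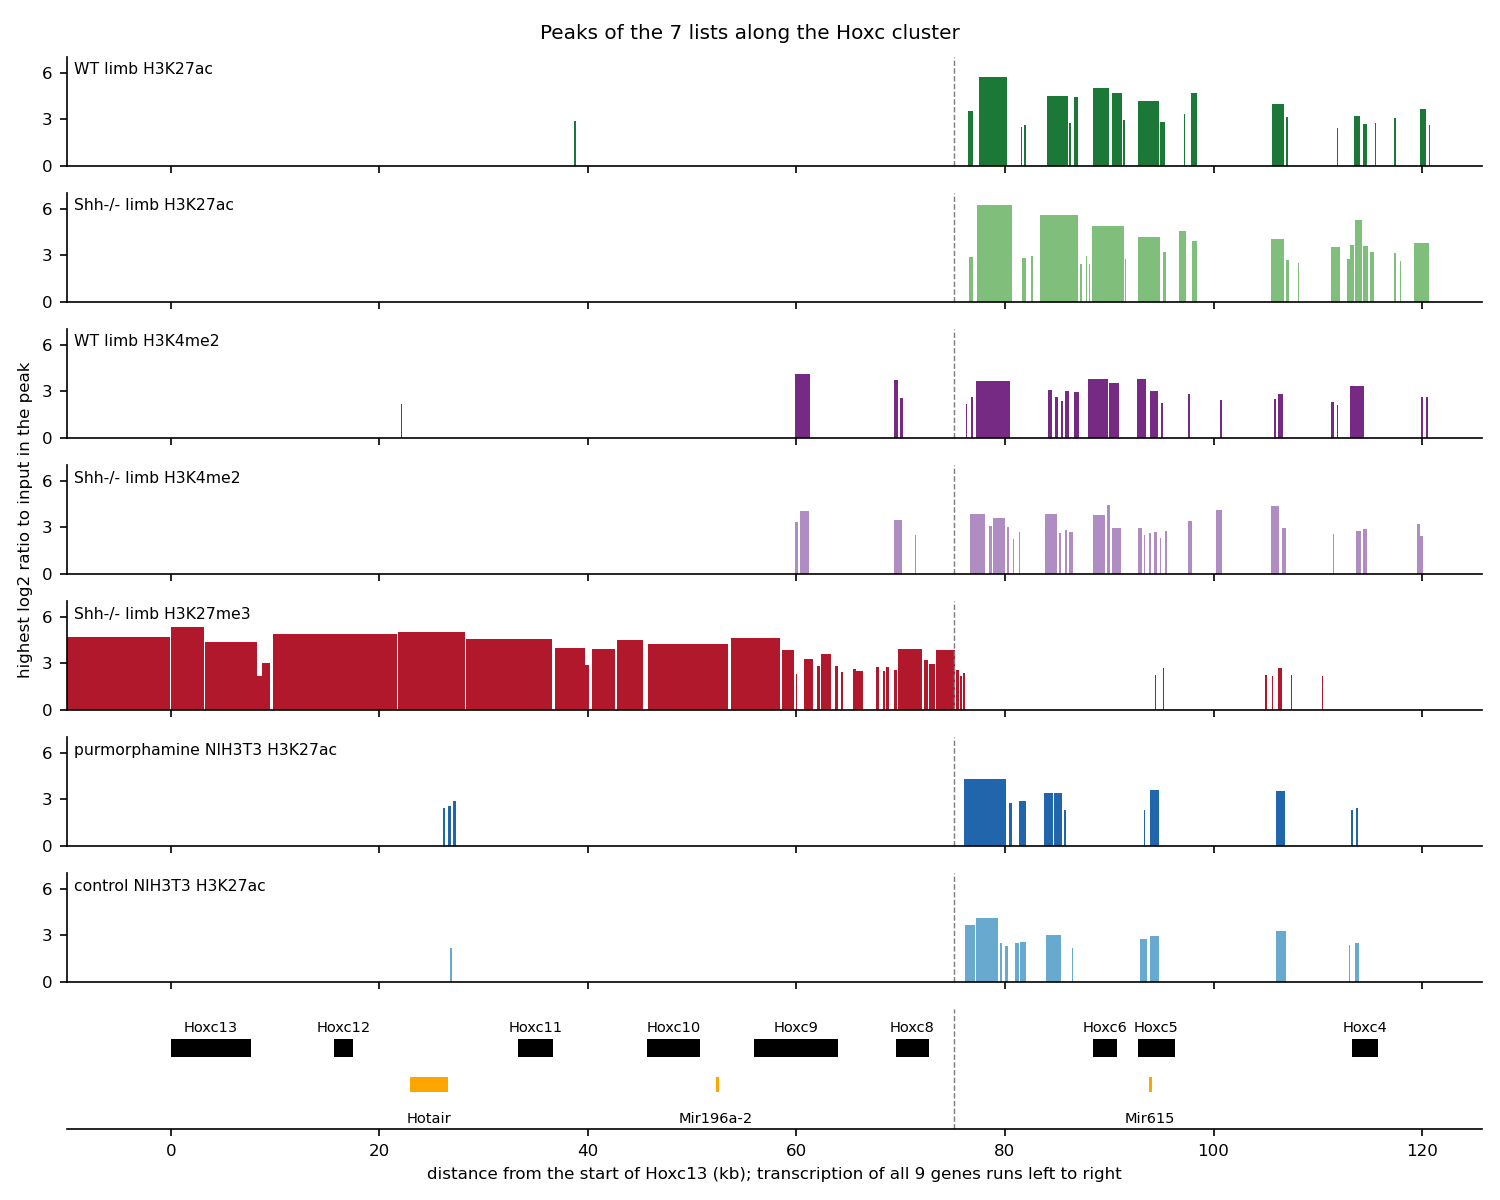
Peaks of the 7 lists along the window, drawn as bars whose width is the peak and whose height is its highest log2 ratio to input; the x axis is the distance from the start of Hoxc13 in kb, the dashed line divides the posterior from the anterior part, and black and orange blocks are the coding and non-coding genes. H3K27me3 fills 90.5% of the part left of the line and 3.98% of the part to the right, where nearly all H3K27ac peaks lie.

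The promoters divided in the same way. A promoter was taken as the 2 kb before to 1 kb after the start of the principal coding transcript. The promoters of Hoxc13, Hoxc12, Hoxc11, Hoxc10, Hoxc9 and Hoxc8, 6 of the 9, carried an H3K27me3 peak, where 12.0% of all 21851 protein-coding genes did. These same 6 had H3K27me3 without H3K27ac in the Shh-/- limb (10.6% of all genes). The other 3, Hoxc6, Hoxc5 and Hoxc4, had H3K27ac without H3K27me3 (36.9% of all genes). An H3K27ac peak was found at these 3 promoters in the WT limb (41.1% of all genes), in the Shh-/- limb (38.2%) and in control NIH3T3 cells (50.2%), and at 2 of them, Hoxc5 and Hoxc4, with purmorphamine (50.3%). Thus 2 of 9 members were acetylated in all 4 lists, against 34.1% of all genes.

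Within the posterior part, the 6 genes were covered to different degrees. Hoxc13 (ENSMUSG00000001655, chr15:102921103-102928814) began under the best-ranked H3K27me3 peak of the window. That peak, chr15:102921100-102924299, ranked 23 of the 20846 peaks deposited, with a log2 ratio of 5.35. The widest peak of the window, chr15:102908650-102920999, lay just before it, was 12350 bp long and ran past the start of the window. A 5000-bp peak covered the rest of the gene, with short gaps between the 3, and 96.7% of its promoter was covered.

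Hoxc12 (ENSMUSG00000050328, chr15:102936757-102938609) lay wholly within an 11900-bp peak of log2 ratio 4.86 and rank 189. All of the 10 kb around its start was covered, which is the most that a gene can have. Slc6a5, outside the cluster, also had 100.0% after rounding. For Hoxc11 (ENSMUSG00000001656, chr15:102954427-102957708) the promoter was fully covered by a peak of 8250 bp with a log2 ratio of 4.57. For Hoxc10 (ENSMUSG00000022484, chr15:102966796-102971893) it was covered to 81.7%, since the start of the gene fell between a peak that ended 447 bp before it and a 7650-bp peak that began 104 bp after it. The latter peak, of log2 ratio 4.23, also held Mir196a-2. Around the starts of these 4 genes at least 92.5% of the 10 kb was covered.

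Hoxc9 and Hoxc8 showed a more broken pattern. Hoxc9 (ENSMUSG00000036139, coding transcript chr15:102977032-102985099) had a fully covered promoter, with a log2 ratio of 4.65, but 77.7% of its coding transcript was covered, against 98.0% for Hoxc10 and 99.4% for Hoxc13. Hoxc8 (ENSMUSG00000001657, chr15:102990607-102993821) had 60.2% of its promoter covered, by 5 peaks of which the highest log2 ratio was 3.90. From the window's start to the base before Hoxc9, 14 peaks covered 96.6% of the DNA, with a median log2 ratio of 4.44 and a median length of 3975 bp. From Hoxc9 to the end of the H3K27me3 peaks 70.5% of the DNA was covered, in part by the last of those 14, the 4750-bp peak over the Hoxc9 start. The 20 peaks that followed it summed to 11600 bp of these 20861 bp, with a median log2 ratio of 2.77 and a median length of 300 bp. The covered share of the 10 kb around each start was 98.5% at Hoxc13, 100.0% at Hoxc12, 97.8% at Hoxc11, 92.5% at Hoxc10, 87.5% at Hoxc9 and 62.1% at Hoxc8, so that after Hoxc12 each gene had less than the one before it. Among all protein-coding genes 23 had a larger share than Hoxc13, 32 than Hoxc11, 69 than Hoxc10, 98 than Hoxc9 and 224 than Hoxc8.

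**Figure D2:**
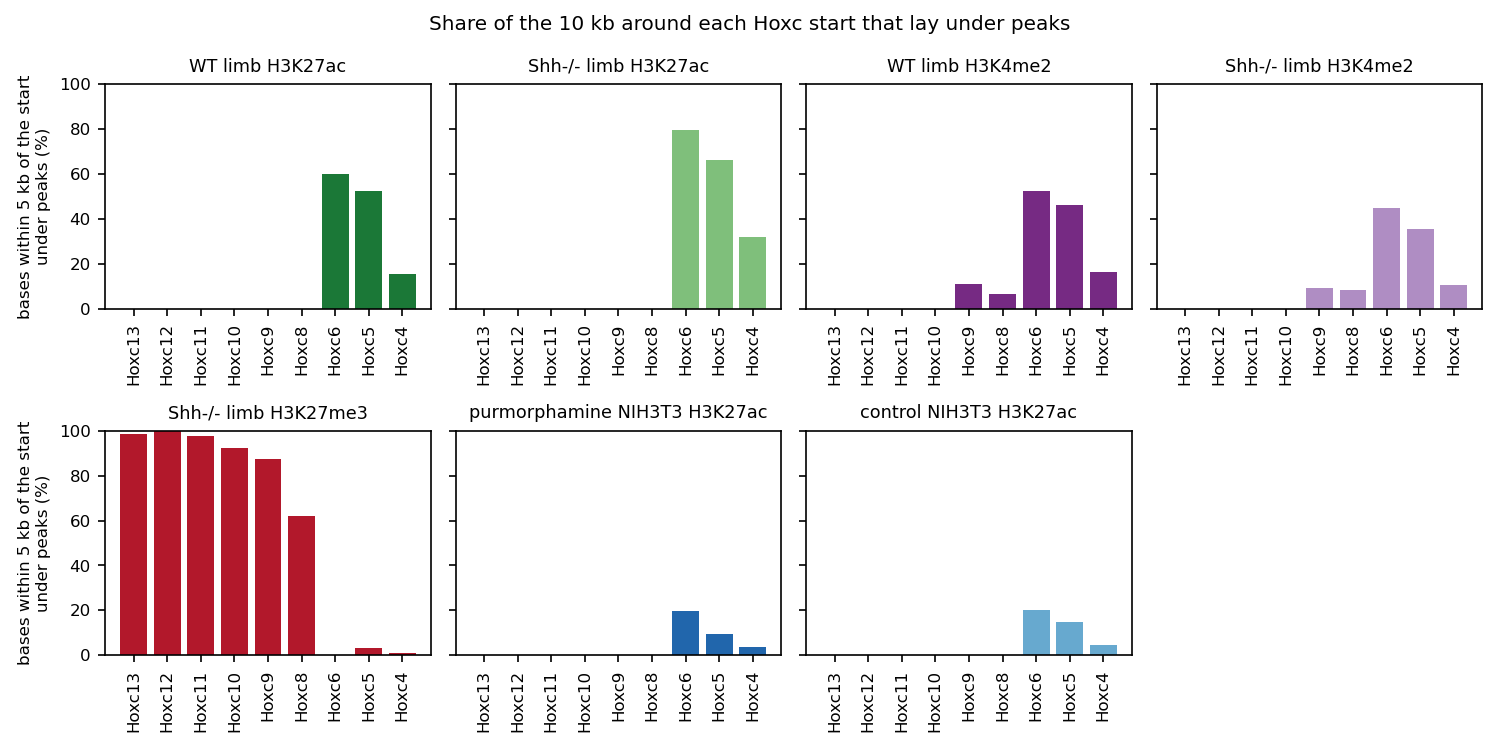
Percent of the bases within 5 kb of each Hoxc start that lay under peaks, 1 panel per list, genes in chromosome order. H3K27me3 is at 62.1% or more from Hoxc13 to Hoxc8 and at 3.0% or less from Hoxc6 to Hoxc4, and H3K27ac is at 0 for the former and above 0 for the latter in all 4 acetylation lists.

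H3K4me2 was nearly missing from the H3K27me3 part. Genome-wide, 84.9% of the promoters with an H3K27me3 peak also had an H3K4me2 peak in the Shh-/- limb, and 87.7% had one in the WT limb. At the Hoxc cluster 1 of the 6 such promoters had one in either genotype, that of Hoxc8. Counted over all members, 4 of 9 promoters had H3K4me2 in the WT limb (60.6% of all genes) and in the Shh-/- limb (60.0%), namely Hoxc8, Hoxc6, Hoxc5 and Hoxc4, and 1 of 9 had both H3K27me3 and H3K4me2 (10.2%). Thus 5 of the 6 Hoxc promoters under H3K27me3 were on the less common side of the genome-wide split.

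The H3K4me2 that was present there lay at Hoxc9 and Hoxc8, save for 1 small WT peak between Hoxc12 and Hoxc11. That peak, chr15:102943150-102943299, was 150 bp long, had a log2 ratio of 2.21 and ranked 34066. All of its 150 bases lay under H3K27me3. In the WT limb, a peak of 1450 bp within Hoxc9, over coding sequence (chr15:102980950-102982399) had a log2 ratio of 4.12, the highest of any WT H3K4me2 peak in the window, and ranked 3661. In the Shh-/- limb the same place held peaks of 300 and 950 bp with log2 ratios of 3.36 and 4.08. H3K27me3 was interrupted at this place, and 650 of the 1450 WT bases lay under H3K27me3 peaks. At the start of Hoxc8, WT peaks of 400 and 250 bp had log2 ratios of 3.74 and 2.59, and a Shh-/- peak of 750 bp had 3.45. Of those 750 bases, 700 were also under H3K27me3. Over the posterior part as a whole, 66.7% of the 2100 bp of Shh-/- H3K4me2 lay under H3K27me3, whereas 3.66% of the 12300 bp of the anterior part did, so that the window's share was 12.8% (1850 of 14400 bp), against 8.71% genome-wide.

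Limb acetylation within the posterior part was limited to a single peak. It was called in the WT list alone, between Hoxc11 and Hoxc10 (its sequence is shown above), was 150 bp long, had a log2 ratio of 2.87 and ranked 32101 of 49679. All of its 150 bases lay under H3K27me3 of the Shh-/- limb. The Shh-/- H3K27ac list had no peak from the start of the window to base 102997649, a stretch of 86547 bp.

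The end of the H3K27me3 peaks and the first peaks of active marks in the anterior part lay close together. The last of the small H3K27me3 peaks after Hoxc8 ended at base 102997299, and no H3K27me3 peak followed for 18150 bp. Beside the H3K4me2 peaks already named in the posterior part, the next WT H3K4me2 peak began 50 bp after this base. Control NIH3T3 H3K27ac began in the adjoining bin, WT limb H3K27ac 250 bp after, Shh-/- limb H3K27ac 350 bp after and Shh-/- H3K4me2 400 bp after. The first purmorphamine peak overlapped the last H3K27me3 peak by 150 bp. All peak lengths are multiples of 50 bp, so most of these distances are a few steps of the scale on which peaks were called. The last H3K27me3 peak had a log2 ratio of 2.36, rank 12198 and, by the authors' caller, an FDR of 0.087. The peak before it had an FDR of 0.193, so with an FDR under 0.05 these peaks would end earlier, at base 102996699. The WT H3K4me2 peak 50 bp after the end had an FDR of 0.067. The distances given here therefore hold for the full lists. The first acetylation peak after it had log2 ratios of 3.52 in the WT limb, 2.89 in the Shh-/- limb and 3.65 in control cells.

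**Figure D3:**
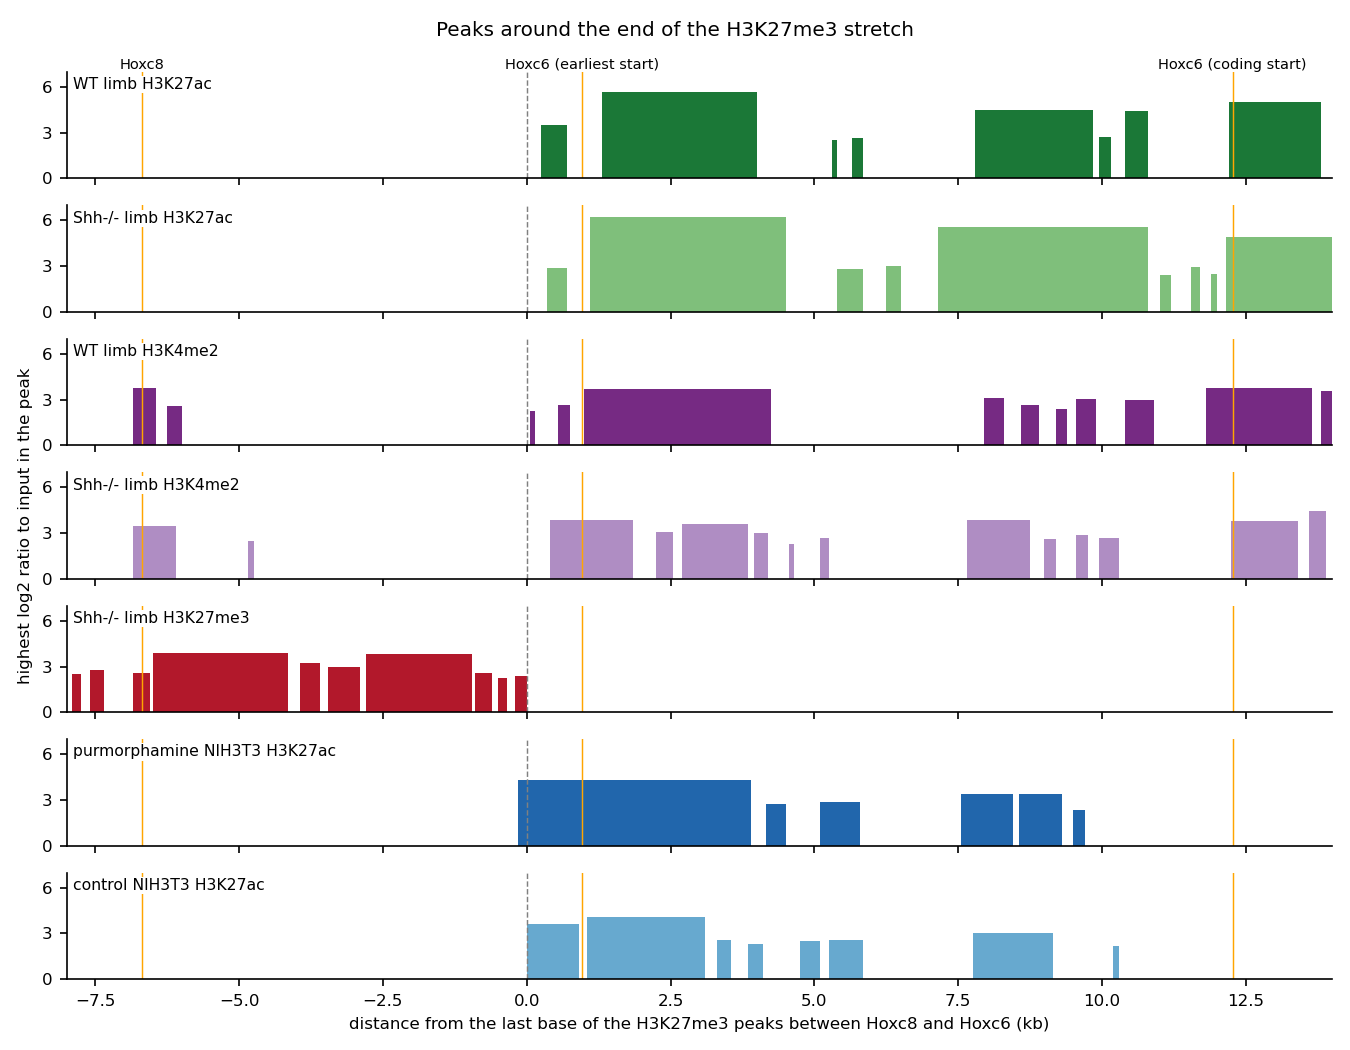
Peaks of the 7 lists around the last base of the H3K27me3 peaks (dashed line, distance 0, x axis in kb), with bar height as the highest log2 ratio to input; orange lines mark the starts of Hoxc8 and of Hoxc6. In all 6 lists of active marks the first peak of the anterior part starts within 400 bp of the line, that of purmorphamine 150 bp before it. The H3K27me3 peak that ends at the line had an FDR of 0.087.

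Beyond this point 7 H3K27me3 peaks remained, all small. They were 100 to 400 bp long, had log2 ratios of 2.17 to 2.69, and covered 1200 bp in all. Of the 7, 2 had an FDR under 0.05 by the authors' caller, compared with 30 of the 34 before the point. Over the whole H3K27me3 list 9831 of 20830 peaks had one, so a large part of that list did not reach this FDR. Of the 7, 2 lay over the UTR of Hoxc5 and 5 in the long intron of the upstream transcript of Hoxc4. In that intron, 550 of the 1200 bases of a Shh-/- H3K27ac peak (chr15:103026650-103027849, log2 ratio 4.04) were also under H3K27me3. The stretch of 150 bp under all 7 lists shown above lies there. Across the window, 250 bp were under all 7 lists, of 11150 bp in the whole genome, and 850 of the 21500 bp of Shh-/- H3K27ac (3.95%) were under H3K27me3, against 0.608% genome-wide.

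In the anterior part the strongest acetylation lay upstream of the coding start of Hoxc6, a gene expressed at the forelimb level. Hoxc6 (ENSMUSG00000001661) has its principal coding transcript at chr15:103009573-103011881, and a non-coding transcript that starts at base 102998257. The best-ranked H3K27ac peak of the window in all 4 lists lay over the first exon of that transcript. In the WT limb it was 2700 bp long (chr15:102998600-103001299), with a log2 ratio of 5.70 and rank 1326. In the Shh-/- limb it was 3400 bp (chr15:102998400-103001799), with 6.22 and rank 253 of 43916. With purmorphamine it was 4050 bp (chr15:102997150-103001199), with 4.30 and rank 7367 of 87809, and in control cells 2050 bp (chr15:102998350-103000399), with 4.09 and rank 8947 of 91023. The widest H3K4me2 peak of the WT limb in the window, 3250 bp with a log2 ratio of 3.67, covered the same place.

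By the nearest coding start this element falls to Hoxc8 in 3 of the 4 acetylation lists and to Hoxc6 in the Shh-/- list, since it lies almost midway between the starts of Hoxc8 and Hoxc6. When the starts of all annotated transcripts were used instead, it went to Hoxc6 in all 4. Assigned by coding start, 21 of 24 WT H3K27ac peaks fell to Hoxc6, Hoxc5 or Hoxc4. Of the Shh-/- H3K27ac peaks 25 of 26 did, of the purmorphamine peaks 10 of 14 and of the control peaks 12 of 15. For H3K27me3 the number was 7 of 41. By any annotated start these numbers were 23, 26, 11, 14 and 12, the last because Hoxc5 and Hoxc6 have non-coding starts within or beside the H3K27me3 part.

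At its coding start Hoxc6 had acetylation peaks in the limb and none in fibroblasts. The peak there was 1600 bp with a log2 ratio of 5.01 and rank 3313 in the WT limb, and 3100 bp with 4.89 and rank 2626 in the Shh-/- limb. Neither NIH3T3 list had a base of the coding transcript under a peak. The control list had 27 bases at the far end of the promoter under a peak of log2 ratio 2.18, ranked 83589, and the purmorphamine list had none. Within 5 kb of this start 60.2% of the bases were acetylated in the WT limb, 79.5% in the Shh-/- limb, 19.5% with purmorphamine and 20.2% in control cells.

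Hoxc5 (ENSMUSG00000022485, coding transcript chr15:103013815-103017429) was acetylated in all 4 lists, in the limb with lower log2 ratios than at the coding start of Hoxc6. Limb peaks of 2000 bp (WT, log2 ratio 4.16) and 2150 bp (Shh-/-, 4.20) began 35 bp after its start and held Mir615. In NIH3T3 cells the peak nearest the start was 700 bp in the control (2.78) and 100 bp with purmorphamine (2.33). Farther into the gene the order was the reverse, with 850 bp and 3.62 for purmorphamine, and 550 and 250 bp and at most 2.99 for the control.

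Hoxc4 (ENSMUSG00000075394, coding transcript chr15:103034395-103036852) had the smallest acetylated share of the 3 within 5 kb of the start in all 4 lists. This share was 15.5% in the WT limb, 32.0% in the Shh-/- limb, 3.5% with purmorphamine and 4.5% in control cells. By this measure the order was Hoxc6, Hoxc5, Hoxc4 in each of these lists. It was another over the promoter, of which purmorphamine H3K27ac covered 11.7% at Hoxc4, 3.33% at Hoxc5 and 0.0% at Hoxc6, and Shh-/- H3K27ac 70.0%, 61.7% and 70.0%. For H3K4me2 they had 52.7%, 46.2% and 16.5% in the WT limb, and Hoxc6 and Hoxc5 had 45.0% and 35.7% in the Shh-/- limb.

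The comparison of genotypes asks how the loss of the Shh ligand bears on these marks. Acetylation at the cluster was largely shared between WT and Shh-/- limbs. Of 24 WT H3K27ac peaks, 4 (16.7%, interval 6.68 to 35.9%) had no Shh-/- peak, against 48.5% of the whole WT list. Of 26 Shh-/- peaks, 9 (34.6%, 19.4 to 53.8%) had no WT peak, against 38.4%. The 4 WT-only peaks were 100 or 150 bp long, together 500 bp, with log2 ratios of 2.49 to 2.87. The 9 Shh-/- only peaks were 100 to 300 bp, together 1550 bp, with log2 ratios of 2.41 to 3.24. Peaks of one genotype alone were thus small. In bases, 92.0% of WT acetylation was also acetylated in the Shh-/- limb (59.7% genome-wide), and 67% in the other direction (70.5% genome-wide).

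Where acetylation was called in both genotypes, it was wider and mostly higher in the Shh-/- limb. Overlapping peaks of both lists were joined into stretches, of which the window held 16, and the highest log2 ratio of each genotype was compared. The ratio was higher in Shh-/- in 12 of 16, and the median difference was 0.13, against -0.23 over the 22895 stretches of the genome. With that median below 0, more stretches of the genome were lower in Shh-/- than higher. Of the 16 stretches, 13 lay above the genome's median, on either side of which the genome's own stretches divide evenly. In the window the ratio was higher by at least 1 in 4 of 16 stretches (3.87% genome-wide) and lower by at least 1 in none (13.9% genome-wide). The Shh-/- bases exceeded the WT bases in 11 of 16 stretches (34.6% genome-wide), and summed to 19950 bp against 15150 bp, a ratio of 1.32 (0.907 genome-wide). Each genotype's list rests on 1 input library. Promoter H3K27ac at markers of muscle precursors also moved with genotype (0 of 3 in WT and 2 of 3, Pax3 and Lbx1, in Shh-/-), as did that at the hindlimb marker Tbx4 (1 of 3 in Shh-/-), and their part in the result was not tested.

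The largest of these differences was at Hoxc4. At its start the WT peak was 600 bp with a log2 ratio of 3.22 and rank 21635, and the Shh-/- list had peaks of 400 and 650 bp with log2 ratios of 3.63 and 5.27, the latter ranked 1550, a difference of 2.05. A stretch in the intron before this start (chr15:103032400-103033249) had 2.43 in WT and 3.53 in Shh-/-, with 100 and 850 bp. Between Hoxc5 and Hoxc4, chr15:103017800-103018499 had 3.36 and 4.54, with 150 and 700 bp. Before the coding start of Hoxc6, chr15:103004450-103008099 had 4.48 and 5.60, with 2650 bp in 3 WT peaks and 3650 bp in 1 Shh-/- peak. Among the others, the coding start of Hoxc6 differed by -0.12 and that of Hoxc5 by 0.04. The lowest difference, -0.77, was at the upstream start of Hoxc4 (chr15:103018900-103019499), where WT had 4.70 and Shh-/- 3.93.

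**Figure D4:**
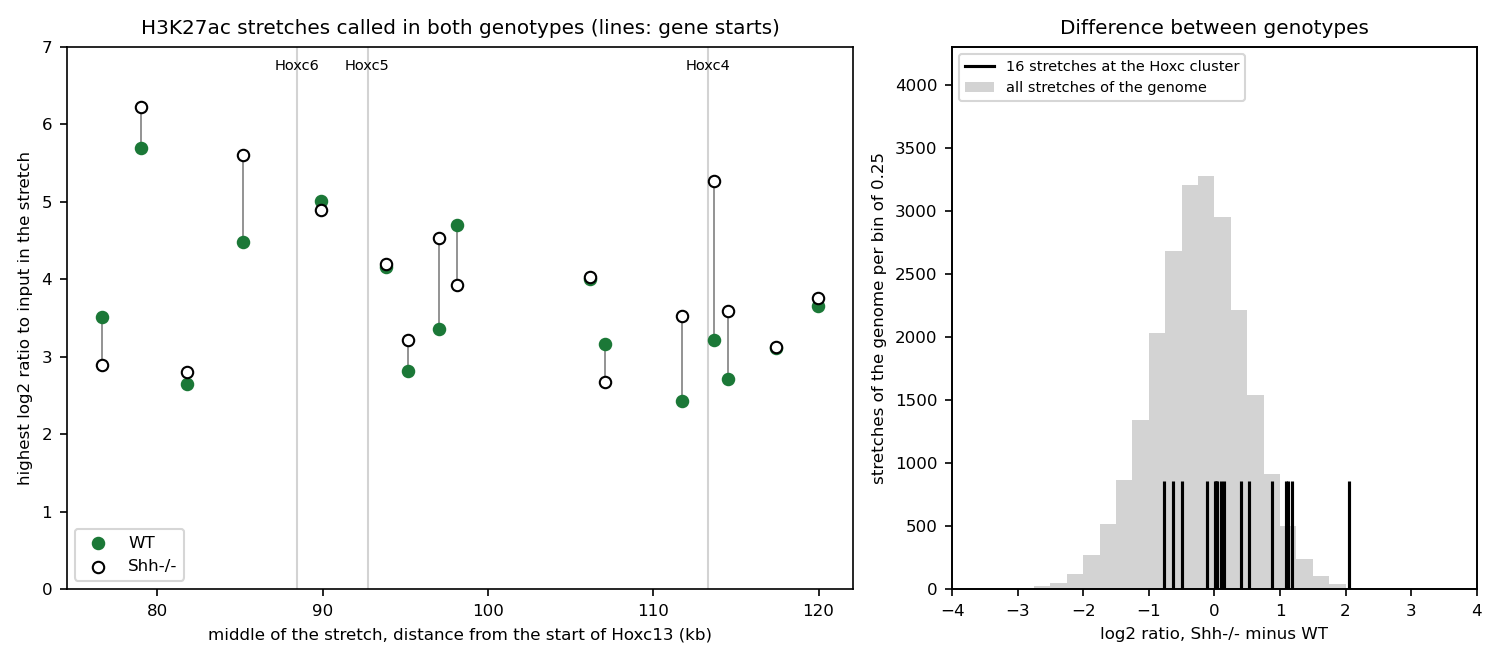
Left, the highest log2 ratio of H3K27ac to input in each of the 16 stretches called in both genotypes, WT filled and Shh-/- open, against the distance from the start of Hoxc13 in kb. Right, the differences of these 16 stretches (black ticks) over the histogram of all 22895 stretches of the genome; the 16 run from -0.77 to 2.05, and 4 lie past 1.

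For H3K4me2 the shares of unshared peaks were close to those of the whole lists. Of 26 WT H3K4me2 peaks, 7 (26.9%, 13.7 to 46.1%) had no Shh-/- peak, against 25.7% of the list, and of 32 Shh-/- peaks, 8 (25%, 13.3 to 42.1%) had no WT peak, against 22.5%. In bases, 62.3% of WT H3K4me2 was shared (71.3% genome-wide). In 7 of the 14 stretches called in both genotypes the ratio was higher in Shh-/-, and the median difference was 0.07, against 0.05 genome-wide. With that median above 0, more stretches of the genome were higher in Shh-/- than lower. Of the 14 stretches, 7 lay above the genome's median. In the window the ratio was higher by at least 1 in 2 stretches (6.75% genome-wide) and lower by at least 1 in none (4.60% genome-wide). These 2 stretches lie in the long intron of Hoxc4. At chr15:103021350-103021899 the log2 ratio was 2.48 in WT and 4.13 in Shh-/-, and at chr15:103026650-103028049 it was 2.80 and 4.39. No H3K27ac peak of either genotype lay in the former, and in the latter the H3K27ac log2 ratios were 4.01 in WT and 4.04 in Shh-/-. The 150 bases of the former that both H3K4me2 lists held, chr15:103021750-103021899, are shown with CG in capitals.
H3K4me2 in the Hoxc4 intron: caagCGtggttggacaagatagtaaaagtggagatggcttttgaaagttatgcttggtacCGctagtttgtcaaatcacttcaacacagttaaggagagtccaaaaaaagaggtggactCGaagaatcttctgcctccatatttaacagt

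GLI proteins, the transcription factors of the Hedgehog pathway, bind a motif whose core is GACCACCCA. These 9 letters, searched on both strands, occurred once in the window, at chr15:103038738-103038746 downstream of Hoxc4. The site lay in no peak of any list, 89 bp after the end of an H3K27ac peak called in both genotypes with log2 ratios of 3.11 in WT and 3.13 in Shh-/-. Of 738 consecutive windows of this length on chromosome 15, 58.5% held the motif. It is shown in capitals with 30 bases on either side (chr15:103038708-103038776).
GLI motif downstream of Hoxc4: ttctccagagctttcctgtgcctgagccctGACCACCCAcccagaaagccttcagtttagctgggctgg

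In NIH3T3 cells the comparison asks whether activating the pathway changed acetylation. Most of the acetylated DNA of the cluster was found in both conditions, as was most of that of the genome. In bases, 71.9% of purmorphamine acetylation at the cluster was also acetylated in the control, close to the 70.4% genome-wide. In the other direction the share was 79.4%, above that of the genome. Of 14 purmorphamine peaks, 5 (35.7%, 16.3 to 61.2%) had no control peak, against 36.5% of the list, and of 15 control peaks, 3 (20.0%, 7.05 to 45.2%) had no purmorphamine peak, against 41.1%. The peaks of one condition alone were at most 350 bp long and had log2 ratios of 2.18 to 2.89. In the 8 stretches called in both conditions the difference, purmorphamine minus control, ran from -0.45 to 0.63, with a median of 0.27 (0.04 genome-wide). No stretch was higher (3.99% genome-wide) or lower (3.17%) by at least 1.

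The fibroblast peaks in the posterior part all lay at the start of Hotair, a long non-coding RNA gene on the minus strand between Hoxc12 and Hoxc11 (chr15:102944062-102947730). With purmorphamine there were 3 peaks, of 200, 300 and 300 bp, with log2 ratios of 2.44, 2.59 and 2.89. The control list had 1, of 200 bp with a log2 ratio of 2.2, which overlapped the second of the 3 by 100 bp (sequence above). Of the 5 purmorphamine peaks without a control peak, 2 were here. In the Shh-/- limb the whole 3669 bp of Hotair lay under H3K27me3, and none of it lay under limb H3K27ac or H3K4me2 of either genotype. Whether the fibroblasts carry H3K27me3 here was not analysed.

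The small non-coding genes lay under the marks of their part of the cluster. The 4 predicted RNA genes around Hotair (Gm27337, Gm27443, Gm28011 and Gm27535) were under H3K27me3 over their whole length, save that 159 of the 175 bases of Gm28011 were. All 85 bases of the Mir196a-2 gene were under Shh-/- limb H3K27me3 and under no other list, and so were both of its mature products, shown above. All 92 bases of Mir615 were under limb H3K27ac in both genotypes and under Shh-/- H3K4me2, and 2 of the 92 under H3K27ac in each NIH3T3 list. No base of it was under H3K27me3.

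Limb and fibroblast shared the anterior part but not its whole extent. Of the 15650 bp acetylated in the WT limb, 6950 bp (44.4%) were acetylated in control NIH3T3 cells, against 44.1% genome-wide. In the other direction 77.2% of the 9000 control bp were acetylated in the WT limb, against 17.0% genome-wide. The limb lists were the larger ones at this cluster (11.5% and 15.8% of the window, against 7.33% and 6.63% in fibroblasts) while over the genome the fibroblast lists were the larger (2.08% and 2.21%, against 0.853% and 0.723%). Without the H3K27me3 list, 2900 bp in 14 blocks were under all 6 other lists. Of these blocks 7 lay before the coding start of Hoxc6, and the longest, of 550 bp (chr15:102998600-102999149), overlapped the first exon of the upstream transcript of Hoxc6.

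The other 3 Hox clusters, taken by the same rule, are given side by side. H3K27me3 covered 58.2% of the Hoxc window, 29.1% of the Hoxa window, 35.4% of Hoxb and 32.0% of Hoxd. The Hoxb genes form 2 windows, since Hoxb13 lies apart. H3K4me2 covered less of Hoxc (11% in WT and 10.6% in Shh-/-) than of the others, which had 21.0 to 33.2% in WT and 19.2 to 30.5% in Shh-/-. WT H3K27ac covered 11.5% of Hoxc, below the 38.7% of Hoxa and 32.4% of Hoxd and a little above Hoxb, where it covered 14700 of 139932 bp. The ratio of Shh-/- to WT acetylated bases was above 1 at Hoxc and Hoxb (15650 to 21500 bp and 14700 to 22500 bp) and below 1 at Hoxa and Hoxd (48500 to 46200 bp and 37850 to 29600 bp). In NIH3T3 cells Hoxb had no peak, and Hoxc had a lower share than Hoxa (33.0% in both conditions) and Hoxd (12.8% and 12.4%).

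**Figure D5:**
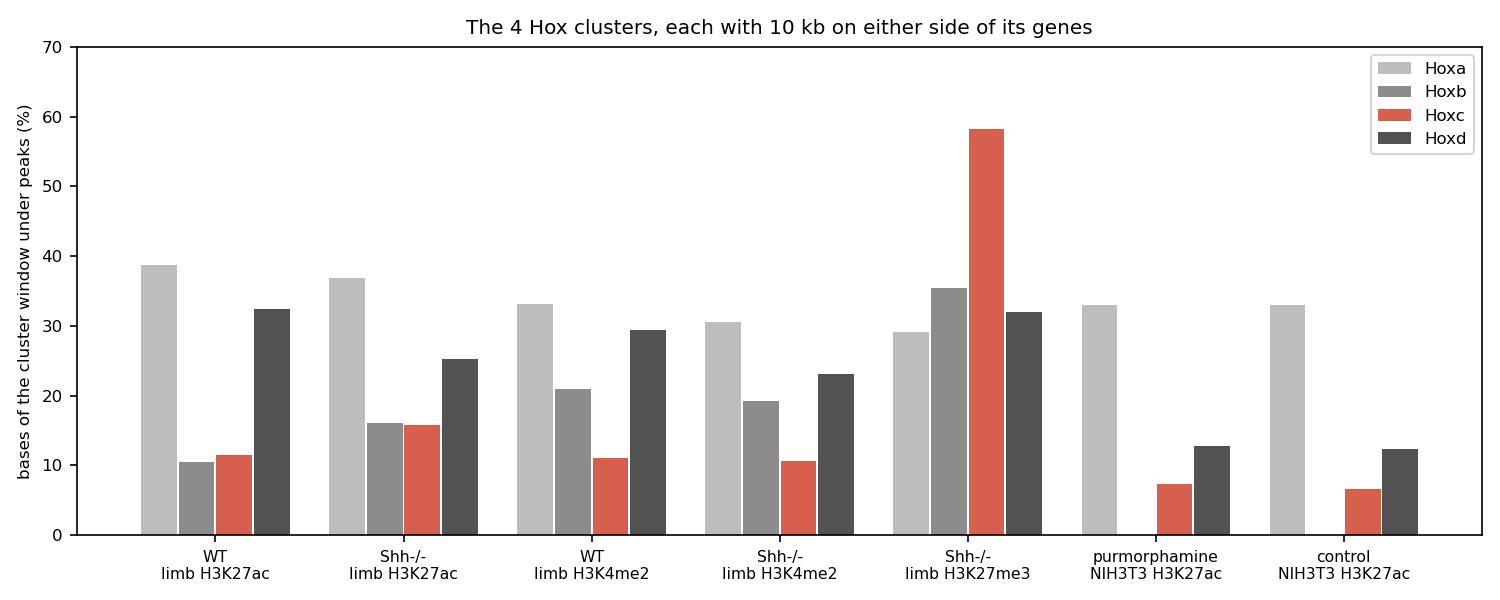
Percent of the bases of each Hox cluster window, with 10 kb on either side of its genes, that lay under peaks of each list. The Hoxc bar is the tallest for H3K27me3, at 58.2%, and the shortest for H3K4me2 in both genotypes, at 11% and 10.6%.

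In the Shh-/- limb 16 of the 30 other Hox promoters and 0 of the 9 Hoxc promoters had both H3K27me3 and H3K27ac. Among all protein-coding genes 1.36% had both, so that a count of 0 of 9 is near the background. With the start of the gene record the counts were 17 of 30 and 1 of 9, the 1 being Hoxc6. Hoxb8 and Hoxd11 were then no longer among the other Hox genes with both, and Hoxb3, Hoxb6 and Hoxd3 were added. H3K4me2 was present at 29 of these 30 in WT and at all 30 in Shh-/-, against 4 of 9 for Hoxc. By paralog group, 11 of the 11 other genes of groups 9 to 13 had H3K27me3, as did all 5 Hoxc genes of these groups, but 6 of the 11 were also acetylated in the Shh-/- limb and none of the 5 was. These 6 were Hoxa9, Hoxa10, Hoxa11, Hoxd9, Hoxd10 and Hoxd11. The other 5, Hoxa13, Hoxb9, Hoxb13, Hoxd12 and Hoxd13, had H3K27me3 without H3K27ac in the Shh-/- limb, as had all 5 Hoxc genes of these groups. They differed in H3K4me2, which the promoters of those other 5 had in the Shh-/- limb and those of the 5 Hoxc genes lacked. In the WT limb the promoters of Hoxd12 and Hoxd13 had H3K27ac. Of the 11 other genes of groups 4 to 8, 9 had H3K27me3, against 1 of 4 in Hoxc, namely Hoxc8.

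By the covered shares of the 10 kb around their starts in the 7 lists, the protein-coding genes outside the Hox clusters nearest to the mean of the members were Gsc, Scrt1, Ccno, Dhh and B830017H08Rik. Their mean absolute differences over the 7 lists were 4.96, 5.63, 5.95, 6.29 and 6.43 percentage points. That mean joins members of both parts, so these genes need not be like any single member. Taken singly, the nearest gene to Hoxc13 was Insl3, to Hoxc12 Slc6a5, to Hoxc11 Uncx, to Hoxc10 Neurod2, to Hoxc9 Sox3 and to Hoxc8 Ihh, all within 0.489 points. The nearest to Hoxc6 was Pkdcc (5.53 points), to Hoxc5 Hist1h2ai (4.54) and to Hoxc4 Col26a1 (3.6), so the acetylated members had no match as close.

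The labelled tissues were checked against defining markers, read as promoters with or without an H3K27ac peak. All 4 forelimb mesenchyme markers (Prrx1, Tbx5, Twist1 and Msx1) had one in both limb lists. Of the 3 hindlimb markers none had one in WT, and 1, Tbx4, had one in Shh-/-. Of the markers of muscle precursors 0 of 3 had one in WT and 2 of 3, Pax3 and Lbx1, in Shh-/-. Of those of endothelium 1 of 3 had one in each genotype (Cdh5 in WT and Pecam1 in Shh-/-), of those of ectoderm 0 of 4 in either, and none of the 6 markers of blood and neural cells did in either. All 4 fibroblast markers had one in both NIH3T3 lists, and 1 of them, Col1a2, had one in both limb lists. Of the other markers, Prrx1, Twist1 and Met had one in both NIH3T3 lists. Trp63 and Pecam1 had one with purmorphamine alone, and Krt8 in the control alone.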

How the data were processed

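Forelimb buds and NIH3T3 cells were profiled by ChIP-seq in 14 ChIP and 10 input libraries, grouped by their labels. The submitters' processing notes name Bowtie2 2.2.5. Peaks are the authors' CisGenome 2.1.0 calls (mm10), made on pooled replicates against input, with 1 input per limb condition for H3K27ac and H3K4me2. For each peak they deposited a rank, a position, a length, an FDR (a q-value), a score that orders the ranks, a log2 ratio (ChIP over input, at its maximum), and −log10 of the lowest Poisson p-value. Scores were at least 3.0 and −log10 values at least 5.0 in all deposited lists. Depth per library is unknown.

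Only the 19 autosomes and the sex chromosomes were kept, with 1-based coordinates. Gene positions came from GENCODE vM21 on GRCm38. The start of a gene was the 5′ end of its coding transcript with the best APPRIS tag, the shorter on ties. Peaks were shared if they overlapped by at least 1 bp. Interval counts (Python 3.11.15, pandas 2.3.3) were checked on simulated lists against bedtools 2.31.1. Alternatives changed the overlap, the threshold, the flank, the unit, the merging of peaks, the promoter and the start. The genes named are the 9 members, non-coding genes of the window, the 3 coding genes on each side, and the genes nearest in pattern. The members and lists were chosen with earlier results of these data known. Promoter sequences and protein sequences of the members were not used here.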

Additional observations from a re-analysis of the deposited data

How the results depend on the processing

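No paired analysis was possible because each list pools both replicates of its condition, and leaving out a replicate was not possible for the same reason. Of 90 recomputed values, 58 stayed within the main value's counting interval or, for counts of promoters, within 1.5 times. For main values counted in bases, that interval takes each base as a separate trial, though bases of a peak are not independent. It is therefore very narrow (57.9 to 58.5% for the window under H3K27me3), and small shifts fell outside it. Counting peaks up to 500 bp apart as shared lowered the unshared shares to 4.17% (WT H3K27ac), 7.69% (Shh-/- H3K27ac), 3.85% (WT H3K4me2), 6.25% (Shh-/- H3K4me2), 0.0% (purmorphamine) and 6.67% (control). Asking for 50% of a peak raised Shh-/- H3K27ac to 53.8% and Shh-/- H3K4me2 to 46.9%. An FDR under 0.05 lowered WT H3K4me2 to 13.6%, and the better-ranked 50% of every list lowered the control to 0.0%. The shares over the whole lists were not recomputed under these settings, so whether the differences from them remain was not tested. The share of the window under H3K27me3 was 57.1% with the better-ranked 50% and also with an FDR under 0.05, 46.7% with no flank, 52.5% with a 20 kb flank and 65.3% with peaks within 1 kb merged. In the same order without the 20 kb flank, the share of Shh-/- H3K27ac under H3K27me3 was 2.86%, 2.58%, 4.46% and 10.4%, and that of Shh-/- H3K4me2 was 14.8%, 10.2%, 13.6% and 23.8%. The share of WT limb H3K27ac under control H3K27ac was 38.2% (better-ranked 50%), 48.4% (no flank) and 46.6% (merged). With the better-ranked 50%, 2 promoters kept Shh-/- H3K4me2, and 0 had H3K27ac in either NIH3T3 list. With 500 bp on either side of the start, 1 had purmorphamine H3K27ac, and with the start of the gene record 1 had it in either NIH3T3 list. That start also gave 8 promoters with H3K27me3 and 2 with limb H3K27ac, since those of Hoxc5 and Hoxc6 then lie in or beside the H3K27me3 part. Chosen after the data had been seen, assignment by any transcript start moved 1 of 7 counts past 1.5 times, that of H3K27me3 peaks (7 to 12), and the gene record start moved Hoxc promoters with both H3K27me3 and Shh-/- H3K27ac from 0 to 1 and other Hox promoters from 16 to 17. A pooled list limits every value to a description, and small peaks to what the authors' caller passed.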

Other observations

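The DNA on either side of the cluster was without H3K27me3 at coding genes. The nearest protein-coding genes before Hoxc13 were Calcoco1, Atp5g2 and Atf7, the first 188925 bp from the window, and after Hoxc4 they were Smug1, Cbx5 and Hnrnpa1, the first 106438 bp away. None of the 6 had a base of its promoter under H3K27me3. Atf7, Cbx5 (heterochromatin protein 1 alpha) and Hnrnpa1 (an RNA-binding protein) had H3K27ac in all 4 acetylation lists, with 750, 2245 and 2483 promoter bases in the WT limb and 700, 2745 and 2050 in the Shh-/- limb. Calcoco1 was acetylated in NIH3T3 cells alone, with 1300 bases under purmorphamine and 1400 in the control, and had H3K4me2 in the limb. Atp5g2 and Smug1 had no promoter peak in any list by the start used here.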
